A study of Mus musculus with 50 samples.

Results

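The genes described here are 9 transcripts used as landmarks of the hippocampal subfields: C1ql2, Prox1, Dsp and Tdo2 of the dentate gyrus, Calb1 of the dentate gyrus and CA1, Pcp4 of the dentate gyrus and CA2, Wfs1 and Fibcd1 of CA1, and Neurod6 of the CA pyramidal cells. They were looked up on the two-colour Agilent arrays by the RefSeq accession of each probe or by the symbol in its description. All 9 genes had a probe, out of 16792 genes named on the array; they held 13 of its 41174 probes, and 10 of the 50 samples of the series were used, namely the Agilent arrays. Each Agilent array co-hybridised hippocampal RNA of 1 wild-type (WT) mouse and 1 transgenic (TG) mouse. WT mice were male C57/BL6j animals, and TG mice were males on the same background that over-expressed DCLK-short, a brain splice variant of the doublecortin-like kinase gene Dclk1. The study names the expressed form δC-DCLK-short and describes its kinase as constitutively active. All mice were housed individually and none of the labels names a further treatment; the promoter that drives the transgene and the age of the animals are not given in the sources used here. The 5 mice of each genotype were each measured on 2 arrays, once in Cy3 and once in Cy5, so that arrays 1 to 5 carried WT in Cy3 and arrays 6 to 10 carried WT in Cy5. Arrays that share a mouse are not independent, and the number of arrays and mice limits the precision. Both whole hippocampi were extracted, so fewer cells of a type and less RNA per cell cannot be told apart for any of these transcripts.

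The hippocampus is a chain of cell fields. Granule cells of the dentate gyrus receive the input from the entorhinal cortex and send mossy fibres to the pyramidal cells of CA3, which project to CA1, while the small CA2 field lies between them. Each field keeps its own transcription programme into adulthood, and a small set of transcripts is enough to tell the fields apart. In RNA from the whole hippocampus, such transcripts report on the amount of each field in the dissected tissue as well as on expression within it.

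The labelled tissue was checked first. Of the 13 probes, 11 were well above background in both channels of all 10 arrays by the call of the scanner software. The exceptions were 2 probes for Dsp. None of the spots of the 13 probes was saturated or flagged as an outlier, and each probe had 1 spot per array. On each array 80.1% to 88.4% of probes were well above background. Arrays 1 and 9, which share mouse TG4, had the widest spread of log2 ratios over all probes, with SDs of 0.321 and 0.384 against 0.138 to 0.226 on the other 8 arrays, and values without this mouse are given beside the called genes.

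The direction of all Agilent values is doubtful. Taken as labelled, it is opposite to the direction the study gives for this platform. It turns if the arrays labelled 1 to 5 and those labelled 6 to 10 are exchanged. Tmem254a, a transcript with a large difference that also has a named probe on the ABI platform, shows the problem: its log2 TG over WT ratio was -0.99 ± 0.0491 (SE, 10 arrays) as labelled on Agilent, negative on 10 of 10 arrays (FDR 1.02e-05), but 1.81 ± 0.174 on ABI (FDR 0.0251), where WT levels of 12.7 to 13.2 (log2) lay below TG levels of 14.6 to 15.2. The arrays themselves hold a second check, because 2 arrays that share a mouse share its deviations. Over 30200 probes well above background on all arrays, the correlation of log2 ratios across probes, after removal of the mean of each dye orientation, averaged 0.107 over the 10 array pairs that share a mouse as labelled and 0.307 over the 10 pairs that would share one after the exchange. The 6 pairs that share a mouse only as labelled averaged -0.145, the 6 that share one only after the exchange averaged 0.19, and 9 pairs that share none under either reading averaged -0.189. Probes are not independent, so these correlations are a description. The 4 probes of Dclk1 itself had log2 ratios between -0.08 and -0.06 with FDR values of 0.492 to 0.729; which transcript variants they detect is not given in the sources used here, so they do not check the labels. Throughout, higher and lower in TG are given as labelled, and the size of each difference does not depend on the reading.

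At an FDR of 0.1, 3 of the 13 marker probes were differentially expressed between TG and WT: C1ql2 was lower, and Pcp4 and Calb1 were higher in TG as labelled. Over all 41174 probes, 7.41% passed the same limit, 3.66% (1505 probes) higher and 3.76% (1548 probes) lower. That count of 3053 depended on which mouse was left out, and was 282 without WT4, 366 without WT3 and 3199 without WT6. Leaving out a mouse also removes its 2 arrays, the same number for every mouse. The part of lost power in the change of any 1 count was not tested. With each array centred on its median in place of loess, 1232 probes were higher and 103 lower, and of the 13 probes Pcp4 passed (FDR 0.0196) while C1ql2 (log2 ratio -0.23, FDR 0.212) and Calb1 (0.26, FDR 0.218) did not. The median log2 ratio was -0.01 over the 13 probes and 0.00 over all probes. The unadjusted p was below 0.05 for 6 of the 13 probes and for 7783 of all 41174. The remaining 10 probes had log2 ratios between -0.10 and 0.07, with FDR values of 0.141 to 0.973. Across all probes, 2.11% had the same sign on all 10 arrays, as C1ql2 and Calb1 did among the 13. These calls treat 10 arrays as independent, although they hold 5 mice per genotype. With 1 value per mouse, 0.0583% of all probes (24) and none of the 13 passed the limma FDR of 0.1, and 2 of the 13, C1ql2 and Pcp4, had an unadjusted p below 0.05, as did 3308 of all probes.

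**Figure D1:**
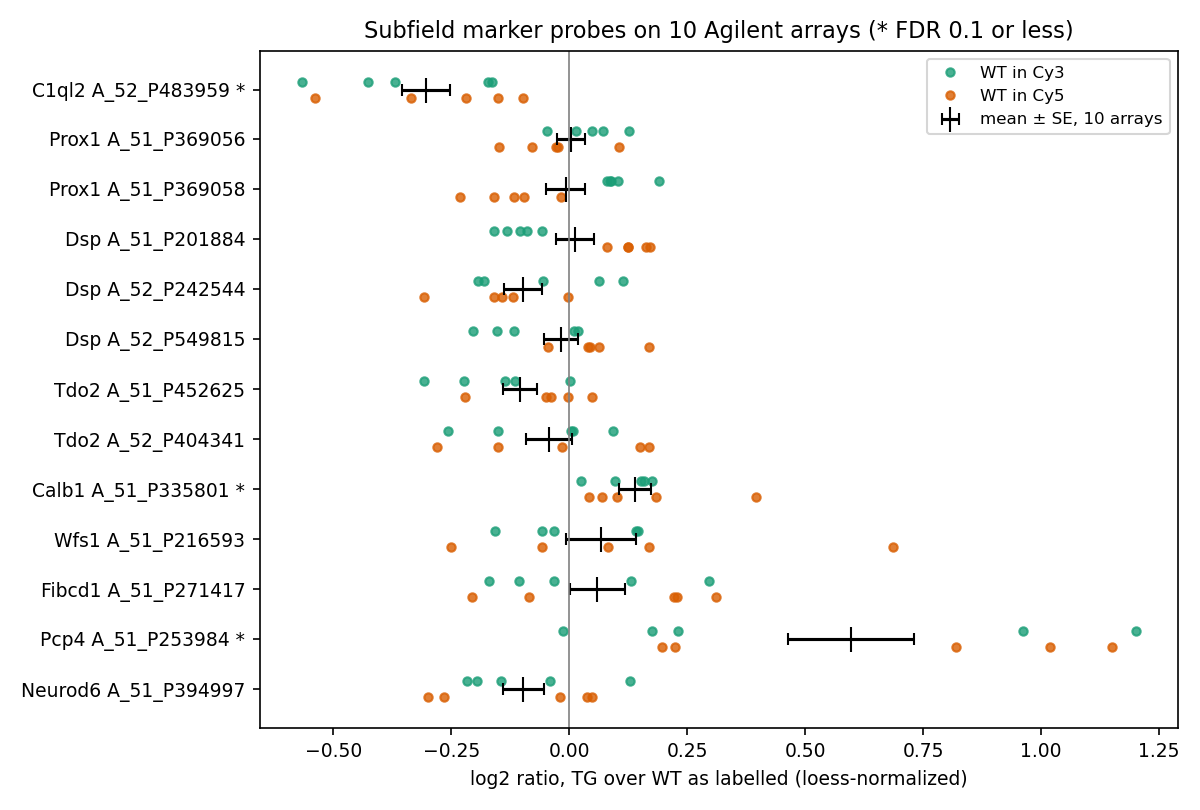
Log2 TG over WT ratio, as labelled, of each marker probe on the 10 Agilent arrays. Points are single arrays, offset and coloured by the dye of the WT sample, and black bars are the mean ± SE; all points of C1ql2 lie below 0 and all of Calb1 above it, Pcp4 splits into ratios of at most 0.23 and of at least 0.82, and Prox1 A_51_P369058 and Dsp A_51_P201884 (a probe not well above background) separate by dye.

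C1ql2, which encodes a secreted C1q-like protein that granule cells release at mossy fibre synapses, had the lowest p of the 13 probes and stood at rank 163 of all probes. Its probe A_52_P483959 is placed at chr1:120100095-120100154 in the files, whose genome build is not named. The log2 ratios on arrays 1 to 5 were -0.43, -0.16, -0.17, -0.37 and -0.57. On arrays 6 to 10 they were -0.15, -0.10, -0.22, -0.54 and -0.34. All 10 normalized ratios were negative. Before normalization the signal was higher in TG on array 5 (402 in WT, 509.8 in TG) and array 7 (249.1 in WT, 503 in TG). The dye orientations overlapped, with means of -0.34 ± 0.173 (SD, n = 5 arrays) for WT in Cy3 and -0.27 ± 0.176 for WT in Cy5. The mean was -0.30 ± 0.0501 (SE, 10 arrays), a 1.24-fold difference, with an FDR of 0.0167.

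Averaged per mouse, the normalized log2 signal of C1ql2 was 8.51, 8.44, 8.55, 8.52 and 8.55 in WT1, WT3, WT4, WT5 and WT6. It was 8.21, 8.43, 8.20, 7.97 and 8.24 in TG1 to TG5. The genotypes did not overlap, but TG2 lay only just under WT3, and the TG mice varied more (SD 0.164) than the WT mice (SD 0.0453). Over all probes, 2.09% had genotypes that did not overlap per mouse, and C1ql2 was the only such probe among the 13. The FDR with 1 value per mouse was 0.254 (limma). TG4 had the lowest level, and without its arrays the log2 ratio was -0.26 with an FDR of 0.0413. Leaving out any array or mouse kept C1ql2 under the limit, with log2 ratios of -0.35 to -0.26. After the exchange of arrays, the levels were 7.97 to 8.36 in WT and 8.49 to 8.56 in TG, again without overlap. The wider spread then passed to the WT mice, and the lowest level was that of WT5. The difference in spread was not tested.

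Prox1 encodes the homeobox factor that specifies and maintains granule cell identity, and was measured by a pair of probes. Probe A_51_P369056 (chr1:189838000-189838059) had log2 ratios of 0.13, 0.05, 0.01, -0.05 and 0.07 on arrays 1 to 5 and of -0.03, -0.08, -0.15, 0.11 and -0.02 on arrays 6 to 10. Its mean was 0.00 ± 0.0293 (SE) with an FDR of 0.973, and the mouse levels overlapped, at 7.13 ± 0.0765 in WT and 7.14 ± 0.101 in TG (SD, n = 5 mice each). Probe A_51_P369058, whose span chr1:189868331-189875619 covers 7289 bases, had ratios of 0.08, 0.09, 0.19, 0.10 and 0.09 on arrays 1 to 5 but of -0.02, -0.23, -0.10, -0.12 and -0.16 on arrays 6 to 10. The sign of this probe followed the dye and not the genotype, with means of 0.11 ± 0.046 for WT in Cy3 and -0.12 ± 0.0788 for WT in Cy5 (SD, n = 5 arrays each). Its mean over both orientations was -0.01 ± 0.0419 (SE; FDR 0.960). The sign of both Prox1 means was not stable, and leaving out 1 array or mouse turned it for each probe.

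Tdo2 encodes tryptophan 2,3-dioxygenase, an enzyme of tryptophan breakdown that in the forebrain marks mature granule cells. Its probe A_51_P452625 (chr3:81697294-81698571) had log2 ratios of -0.31, -0.12, 0.00, -0.22 and -0.14 on arrays 1 to 5 and of 0.00, -0.04, -0.05, -0.22 and 0.05 on arrays 6 to 10. Of the 10 ratios 8 were negative, and the mean of -0.10 ± 0.0367 (SE) did not pass the limit (FDR 0.141). TG4 again had the lowest mouse level, 7.25, against 7.40 to 7.57 in the other TG mice and 7.41 to 7.60 in WT; after the exchange of arrays this level was that of WT5. The second probe, A_52_P404341 (chr3:81693057-81696067), was negative on 5 of 10 arrays, from -0.28 to 0.17, with a mean of -0.04 ± 0.0479 (SE; FDR 0.732). Mouse levels at this probe were 6.73 to 7.29 in TG and 6.87 to 7.22 in WT, and TG4, or WT5 after the exchange, was lowest here too.

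Dsp encodes desmoplakin, a desmosomal linker protein that in the hippocampus marks granule cells, and its 3 probes differed in what they could measure. Probe A_52_P242544 (chr13:37736766-37736825), well above background in every channel, had ratios of -0.18, 0.06, 0.11, -0.06 and -0.19 on arrays 1 to 5 and of -0.12, 0.00, -0.14, -0.16 and -0.31 on arrays 6 to 10. Its mean was -0.10 ± 0.0396 (SE) with an FDR of 0.198. The mouse levels overlapped widely, from 8.43 to 8.96 in WT and from 8.29 to 8.73 in TG. Probe A_52_P549815 (chr13:37734690-37734749) was well above background in 9 of 10 channels of each genotype and had a mean of -0.02 ± 0.0356 (SE; FDR 0.879). Probe A_51_P201884 (chr13:37732512-37733611) was well above background in 0 of 10 channels of either genotype, so that no fold is given. At this dim probe the ratio was negative on arrays 1 to 5 (mean -0.11) and positive on arrays 6 to 10 (mean 0.13), following the dye as Prox1 probe A_51_P369058 did, with the opposite sign.

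Pcp4 encodes a small IQ-motif regulator of calmodulin that is abundant in granule cells and in CA2, and had the largest difference of the 13 probes. Its probe A_51_P253984 lies at chr16:96007581-96007640. On arrays 1 to 5 the log2 ratios were 0.18, 0.96, 1.20, 0.23 and -0.01, and on arrays 6 to 10 they were 0.82, 0.22, 1.02, 1.15 and 0.20. The ratios fell into 2 sets, 5 arrays at 0.82 or more and 5 at 0.23 or less, and both sets held both dye orientations. The orientation means were 0.51 ± 0.536 and 0.68 ± 0.447 (SD, n = 5 arrays each). The mean of all arrays was 0.60 ± 0.134 (SE), a 1.51-fold difference, with an FDR of 0.0401. The SD over arrays was 0.474, rank 1165 of the 30200 probes well above background, whose median SD was 0.15.

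The split of Pcp4 followed mice. As labelled, both arrays of WT3 (0.96 and 1.15) and both arrays of WT4 (1.20 and 1.02) were in the high set, both arrays of WT1 and of WT6 were in the low set, and WT5 had 1 array in each. Per mouse, the log2 level was 11.04, 10.10, 9.92, 10.47 and 10.86 in WT1, WT3, WT4, WT5 and WT6, and 10.95, 11.17, 11.01, 11.19 and 11.07 in TG1 to TG5. WT3, WT4 and WT5 therefore lay below every TG mouse, WT6 lay just below TG1, and WT1 lay within the TG range. The SD was 0.477 among WT mice and 0.102 among TG mice; this difference in spread was not tested. After the exchange the wide spread passed to the TG mice: TG2, TG3 and TG4 had levels of 10.09, 9.94 and 10.47, TG1 and TG5 of 10.91 and 10.99, and WT mice of 10.95 to 11.19. The FDR with 1 value per mouse was 0.406 as labelled. Without WT3, WT4 or WT5 the log2 ratio of Pcp4 was 0.48, 0.47 or 0.61 and its FDR was 0.183, 0.171 or 0.116. It also missed the limit without TG2 (FDR 0.104), TG3 (0.109) or TG5 (0.116), and passed it without TG4 (log2 ratio 0.58, FDR 0.0679).

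**Figure D2:**
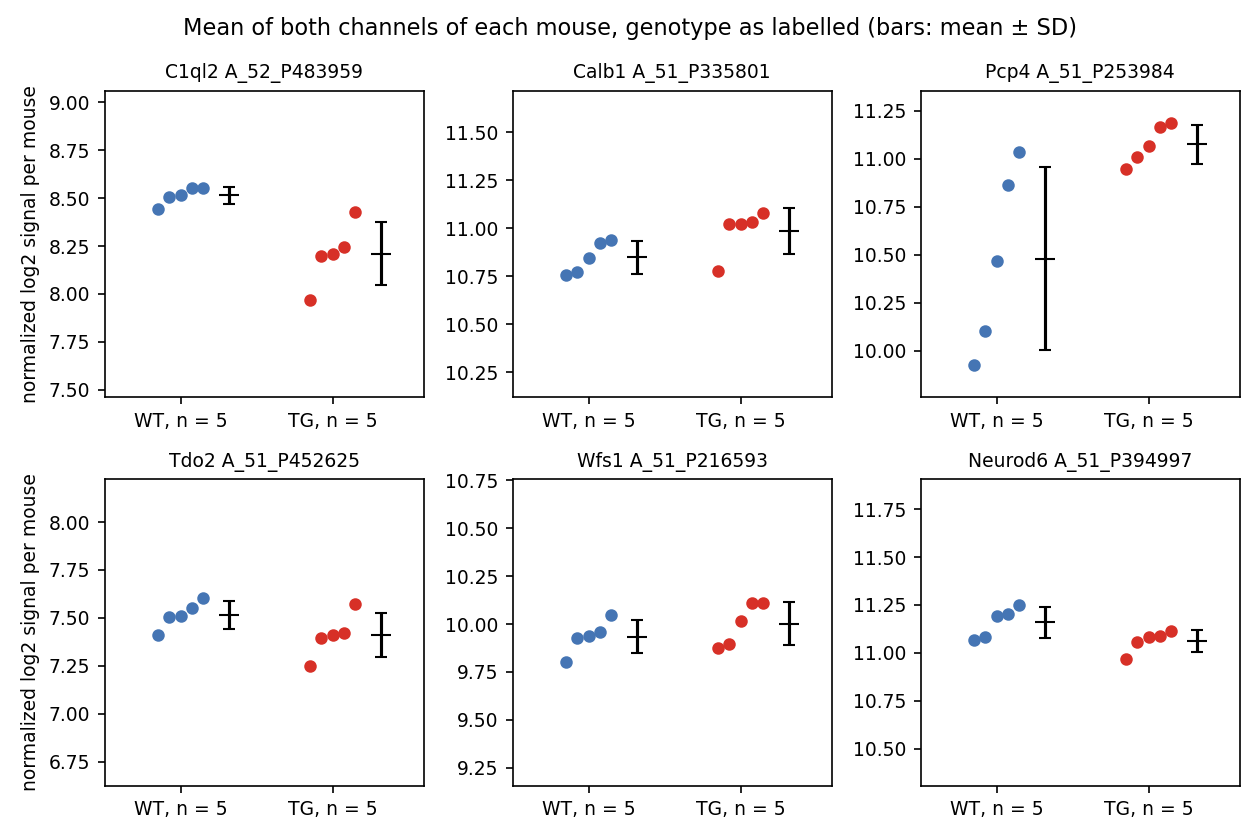
Normalized log2 signal per mouse, the mean of its Cy3 and Cy5 channels, in 5 WT and 5 TG mice as labelled, for the 3 called probes and for 1 probe each of Tdo2, Wfs1 and Neurod6. Bars are mean ± SD and every axis spans 1.6 log2 units; the genotypes separate for C1ql2, the WT mice spread from 9.92 to 11.04 for Pcp4, and the other panels overlap.

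Calb1 encodes calbindin, a calcium-binding buffer protein of granule cells and superficial CA1 pyramidal cells. Its probe A_51_P335801 (chr4:15832362-15832421) had log2 ratios of 0.02, 0.17, 0.15, 0.16 and 0.10 on arrays 1 to 5 and of 0.40, 0.07, 0.04, 0.18 and 0.10 on arrays 6 to 10. All 10 were positive, and array 6 stood above the rest. The mean was 0.14 ± 0.0339 (SE), a 1.102-fold difference, with an FDR of 0.0513. The mouse levels were 10.94, 10.85, 10.76, 10.77 and 10.92 in WT1, WT3, WT4, WT5 and WT6 and 11.08, 11.02, 10.78, 11.04 and 11.02 in TG1 to TG5. Of the TG mice 4 lay above every WT mouse, and TG3 lay near the lowest WT mice, so the genotypes overlapped (FDR 0.633 with 1 value per mouse). After the exchange of arrays, the levels were 10.85 to 11.08 in WT and 10.70 to 10.97 in TG, and TG3, at 10.90, was not apart from the other TG mice. The call for Calb1 was lost without array 2 (FDR 0.112) or array 3 (0.108), and also without mouse WT3, WT4, WT5, TG2, TG3 or TG5, with FDR values of 0.214, 0.155, 0.119, 0.121, 0.117 and 0.15. It held without TG4 (log2 ratio 0.15, FDR 0.0867) and without array 6 (0.11, FDR 0.0741).

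**Figure D3:**
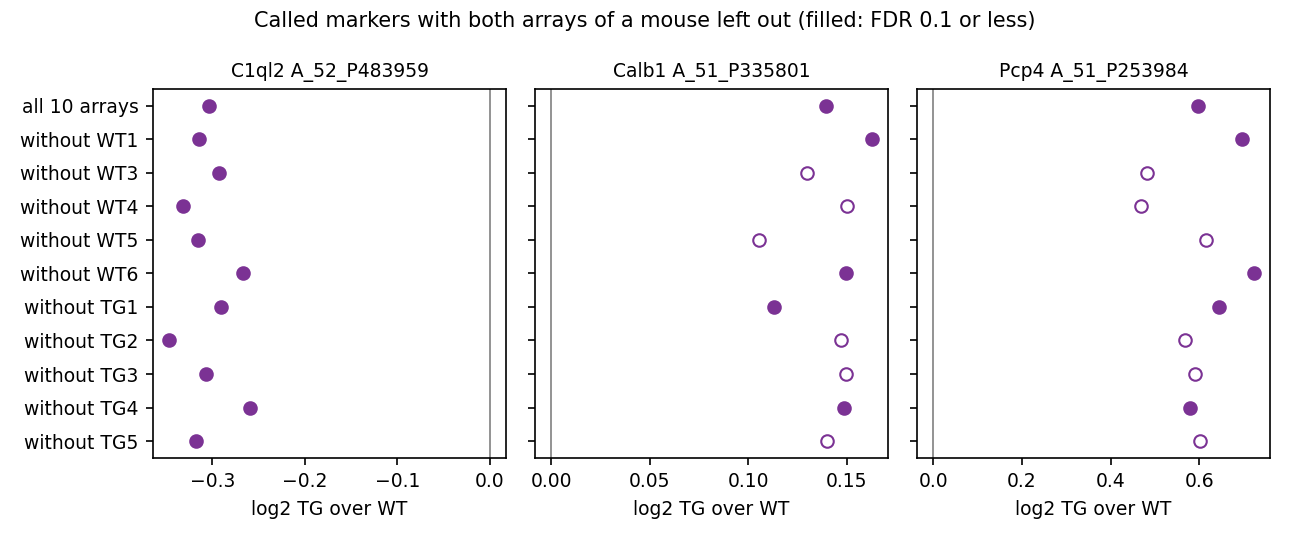
Log2 TG over WT ratio, as labelled, of the 3 called probes with all 10 arrays and with both arrays of each mouse left out in turn. Filled points have an FDR of 0.1 or less: C1ql2 kept its call in all 10 cases, and Calb1 and Pcp4 lost it without WT3, WT4, WT5, TG2, TG3 or TG5.

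The CA1 markers did not pass the test. Wfs1 encodes wolframin, a membrane protein of the endoplasmic reticulum, and its probe A_51_P216593 (chr5:35472698-35472757) had ratios of 0.15, -0.03, -0.06, 0.14 and -0.16 on arrays 1 to 5 and of 0.17, -0.25, 0.08, -0.06 and 0.69 on arrays 6 to 10. Array 10 alone exceeded 0.17, and the mean of 0.07 ± 0.0741 (SE; FDR 0.730) was 0.00 without it. Mouse levels were 9.80 to 10.05 in WT and 9.88 to 10.11 in TG. Fibcd1, which encodes a chitin-binding receptor with a fibrinogen-like domain, was measured by A_51_P271417 (chr2:31746270-31746329). Its ratios of -0.17, -0.03, 0.13, -0.11 and 0.30 on arrays 1 to 5 and of 0.23, 0.31, -0.21, -0.08 and 0.22 on arrays 6 to 10 gave a mean of 0.06 ± 0.0583 (SE; FDR 0.685). The levels were 8.48 to 8.79 in WT and 8.43 to 8.87 in TG, and TG4 (WT5 after the exchange of arrays) was the lowest.

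Neurod6, a basic helix-loop-helix factor of pyramidal neurons that granule cells largely lack, was measured by A_51_P394997 (chr6:55822338-55822397). Its ratios were -0.20, -0.22, -0.04, 0.13 and -0.15 on arrays 1 to 5 and 0.05, -0.02, -0.27, 0.04 and -0.30 on arrays 6 to 10, with 7 of 10 below 0. The mean of -0.10 ± 0.0444 (SE) had an unadjusted p of 0.0498 and an FDR of 0.264. Mouse levels were 11.07 to 11.25 in WT and 10.97 to 11.11 in TG.

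The members of a subfield did not share 1 direction. Of the dentate markers, C1ql2 was lower in TG, Prox1, Tdo2 and Dsp did not pass, and Calb1 and Pcp4, which the dentate gyrus shares with other fields, were higher. Across the 10 arrays, which share mice, the log2 ratios of C1ql2 correlated with those of Tdo2 at r = 0.62 (A_51_P452625) and r = 0.629 (A_52_P404341), and with those of Dsp A_52_P242544 and A_52_P549815 at r = 0.602 and r = 0.636. With the Prox1 probes A_51_P369056 and A_51_P369058 the correlations were -0.612 and -0.133, and with the dim Dsp probe A_51_P201884 the value was 0.241. Such values were not particular to dentate markers. Tdo2 A_51_P452625 and A_52_P404341 correlated with the CA1 marker Fibcd1 at 0.612 and 0.654, and with Calb1 at 0.253 and 0.6. Pcp4 and Calb1 correlated at 0.376, and C1ql2 and Pcp4 at 0.339. The lowest value, -0.824, was between the dye-following probes of Prox1 and Dsp, whose dye means also have opposite signs.

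Among 19084 named probes well above background, those whose ratios followed each called marker most closely were Steap3 (r = 0.97) and Eva1b (0.921) for C1ql2, Uqcr11 (0.993) and Dnajc19 (0.992) for Pcp4, and Nt5c1b (0.923) and Prrg2 (0.916) for Calb1. For the CA markers they were Camkk1 (0.929) and Plxdc1 (0.899) for Wfs1, Scamp2 (0.953) and Ptprt (0.905) for Fibcd1, and Leo1 (0.884) and Sap18 (0.88) for Neurod6. For Tdo2 A_51_P452625 they were Lmo4 (0.954) and Nrp1 (0.949), and for A_52_P404341 they were Gpr143 (0.926) and Uhrf1bp1l (0.912). For Prox1 they were Xylt2 (0.948) and Ankfy1 (0.944) with A_51_P369056, and Rnf17 (0.986) and Uchl1 (0.954) with A_51_P369058. For Dsp A_52_P242544 they were Npm3 (0.906) and Mrpl32 (0.904). These are the highest of many correlations over 10 arrays and are a description.

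Further known markers of each field were counted in the same fit, in which 3.66% of all probes were higher and 3.76% lower. The lists are short, so that a single called probe already exceeds these shares. With 1 value per mouse none of the list calls held, and the FDR of that fit is given as a second value for each gene. Of 11 further granule cell genes, 9 had a probe, and 3 of their 14 probes were called, all lower in TG as labelled: Plk5, a polo-like kinase family member (-0.33, FDR 0.0186 and 0.393), Trpc6, a cation channel (-0.26, FDR 0.0189 and 0.425), and Dgkh, a diacylglycerol kinase (-0.57, FDR 0.0609 and 0.714). Each of these 3 was negative on all 10 arrays, as C1ql2 was. The C1ql2 relative C1ql3 had a log2 ratio of -0.26 with an FDR of 0.108, and the median of the 14 probes was -0.02. Of the 14 probes 5 had a positive ratio, among them those of Ablim3 (0.05, 0.12 and 0.04, with FDR values of 0.384, 0.504 and 0.690). Of 13 probes for immature granule cells, 2 were higher and 0 lower: Igfbpl1 (0.12, FDR 0.0417 and 0.987) and Calb2, which encodes calretinin (0.22, FDR 0.0441 and 0.607). That Calb2 probe was also the 1 called of 8 probes for hilar mossy cells. The other Calb2 probes had ratios of 0.20 (FDR 0.212) and 0.13 (FDR 0.671). Of the 13 immature granule cell probes 9 had a positive ratio, and their median was 0.08. Neurod1 went the other way, at -0.14 (FDR 0.427). The Dcx probes were at 0.03, 0.04 and -0.01 (FDR 0.619, 0.723 and 0.944), the first and last not well above background on all arrays.

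In the CA fields, 1 of 7 probes for CA2 was called, the calcium-binding protein gene Necab2, higher in TG (0.22, FDR 0.0176 and 0.314) and positive on 10 of 10 arrays. Of 11 probes for CA3, 1 was called: Bok, a BCL2 family member, lower at -0.42 as labelled (FDR 0.00413 and 0.141). The study reports Bok as higher in TG, both on this platform and by quantitative RT-PCR, opposite to the direction as labelled. Of 9 further probes for CA1, 1 was called, the matricellular protein gene Ccn3, lower at -0.23 (FDR 0.0859 and 0.802). The list medians were 0.07 for CA2, -0.03 for CA3 and -0.03 for CA1. Positive ratios were found for 6 of 7, 2 of 11 and 4 of 9 probes of these lists, against 21400 of all 41174 probes.

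**Figure D4:**
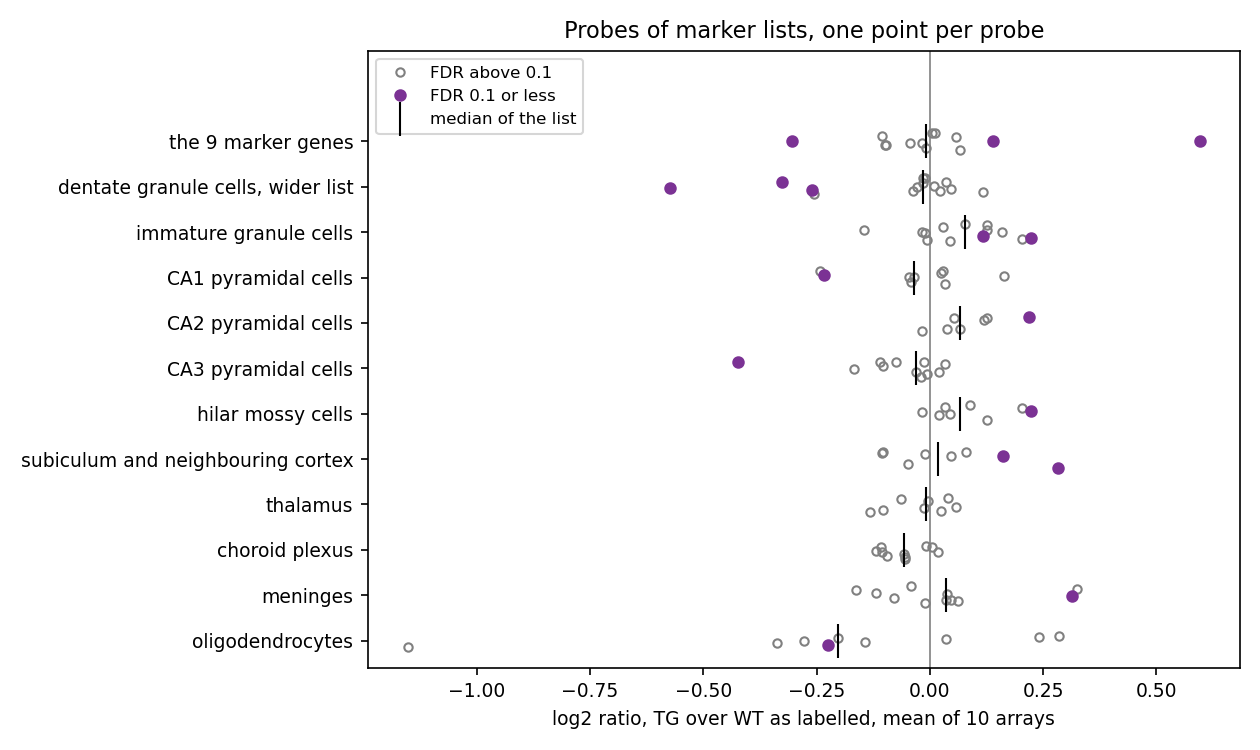
Mean log2 TG over WT ratio, as labelled, of each probe in the marker lists, with filled points for an FDR of 0.1 or less and a black line at the median of each list. Called probes are few in every list, the called granule cell probes of the wider list are all negative, and the oligodendrocyte median lies at -0.20.

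Markers of tissue next to the hippocampus and of other cell types were counted in the same way, since the dissection could include them. Of 8 probes for the subiculum and neighbouring cortex, 2 were higher, Nts (0.28, FDR 0.0318 and 0.285) and Slc17a6 (0.16, FDR 0.0707 and 0.601). A second Slc17a6 probe had the opposite sign, at -0.05 (FDR 0.861). The Fn1 probes were at -0.10, -0.11 and -0.01 (FDR 0.318, 0.366 and 0.934). Of the 8 probes 4 had a positive ratio, and the list median was 0.02. The summed normalized signal of the list per mouse was 1355 to 1461 in WT and 1311 to 1602 in TG. For the thalamus, 0 of 8 probes were called by limma at the FDR and 1 had an unadjusted p below 0.05, with sums of 1054 to 1145 in WT and 983.9 to 1142 in TG. For the choroid plexus, 0 of 10 were called and 1 had an unadjusted p below 0.05, with sums of 2411 to 5185 in WT and 1866 to 4781 in TG. For the meninges, 1 of 11 was higher, Igf2 (0.31, FDR 0.0854 and 0.321), with sums of 3132 to 3721 in WT and 3474 to 3784 in TG. Of 9 oligodendrocyte probes, 1 was lower, Mbp (-0.22, FDR 0.0543 and 0.620), and 5 had an unadjusted p below 0.05. These 5 did not share 1 direction. A second Mbp probe was at -1.15 (FDR 0.187) and Mog at -0.34 (FDR 0.248). A Mobp probe was at 0.29 (FDR 0.113) and Cnp at 0.24 (FDR 0.135), each positive on 9 of 10 arrays. The other Mobp probe had the opposite sign, at -0.20 (FDR 0.357), and was positive on 2 of 10 arrays. The sums of the oligodendrocyte list were 18650 to 24830 in WT and 15350 to 19700 in TG, and its median log2 ratio was -0.20. All 8 thalamic, 10 choroid plexus and 9 oligodendrocyte probes were well above background on all arrays, as were 9 of the 11 meningeal and 7 of the 8 subicular probes. The part of these cell types in the differences of C1ql2, Pcp4 and Calb1 was not tested.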

How the data were processed

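The 10 Agilent files hold, as deposited and per the file headers, spot intensities in Cy3 and Cy5 (mean or median over pixels) with a local background, neither corrected nor normalized, plus the log10 ratio of the scanner software. The 9 marker genes and all lists were chosen with earlier results of these data known. Mean intensities of 43790 features per array were normalized without background correction by loess within each array (control spots at weight 0), turned to log2 TG over WT, and averaged over spots of a probe, giving 41174 probes. Of these, 22214 were named by accession and 1103 by description alone; 17857 had no symbol. After the methods of the study, EBLRM from limma 3.58.1 (R 4.3.3) tested the mean of 10 log2 ratios against 0, with Benjamini-Hochberg adjustment over all probes and an FDR limit of 0.1. Levels per mouse are means of both channels after Aquantile normalization, and a fit on these used 1 value per mouse. Fold changes are sizes from mean log2 ratios. On simulated data, the log ratio fit recovered 60.5% of 200 probes changed by 0.3 and 100% of those changed by 0.6. Of the calls of that fit, 0% and 1.48% were unchanged probes. With 1 value per mouse, 99.5% and 100% were recovered, and 6.13% and 11.9% of calls were unchanged probes, the latter above the FDR limit. The simulation gave all probes the same small mouse and array noise. Real mouse levels spread more at some probes, with SDs of 0.477 in WT for Pcp4 and 0.164 in TG for C1ql2. These simulated rates therefore do not carry over to the real arrays. Named are all probes of the 9 genes, the label checks, up to 4 called genes per list by smallest p, and the 2 most similar named genes per probe. C1ql3, Ablim3, Neurod1, Dcx, Fn1, the further Calb2, Mbp and Slc17a6 probes, Mog, Mobp, Cnp and single pairs of correlated markers were added after their values were seen. The raw ABI signal intensities deposited by the authors were used for Tmem254a alone, after log2 transformation and quantile normalization, as none of the 9 genes could be named there (311 of 33012 probes had a name). Samples of the other platforms were not analysed here. Probe sequences were not used here, and 1 gene of a marker list is not reported here. Alternatives comprised background correction, pixel summary, normalization, scanner ratio, probe filters, dye term, mouse block, exchange of arrays and left-out arrays or mice.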

Additional observations from a re-analysis of the deposited data

Results flagged for a closer look

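Groups of 5 mice and of 10 arrays were screened for a value set apart from the rest by a wide gap, and 3 of 39 groups held one; chance alone gives about 1 in 20. The Calb1 log2 ratio on array 6 (WT5 and TG1) was 0.3953, and the nearest of the other arrays was at 0.1837. The Calb1 level of TG3 was 10.78, below the nearest TG mouse at 11.02; after the exchange of arrays it was 10.90, within the 10.70 to 10.97 of the TG mice. The Wfs1 log2 ratio on array 10 (WT6 and TG5) was 0.686, and the nearest array was at 0.1684.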

How the results depend on the processing

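Over 34 alternatives that keep the labels, C1ql2, Calb1 and Pcp4 kept their direction in all, and kept their call in 31, 21 and 26. For part of them the direction was fixed in advance, as the fit kept the same mean ratios (-0.304, 0.1396 and 0.5965). These were the left-out flagged spots, probe filters, FDR of 0.05, dye and array terms, mouse random block and 1 value per mouse. The fit with a dye term and the fit of channel intensities with dye and array terms gave equal results, with 3755 probes each. With each array centred on its median in place of loess, 1335 probes passed, 1232 higher and 103 lower against 1505 and 1548, the median of all probes was -0.03, and 1 marker probe, Pcp4, was called (C1ql2 FDR 0.212, Calb1 0.218). There Prox1 A_51_P369058 was at 0.0032, Dsp A_51_P201884 at -0.0939 and Neurod6 at 0.0280. At an FDR of 0.05, 1203 probes passed, C1ql2 and Pcp4 among them. With the mouse as a random block 438 passed, C1ql2 (FDR 0.0496) and Pcp4 (0.0940) among them, but not Calb1 (0.445). With 1 value per mouse, 24 probes and 0 marker probes passed. With the mouse number as a replicate block, 0 probes passed (2549 at an unadjusted p below 0.05 by limma) and 0 marker probes (2 at that p), and the Prox1 means were -0.0145 and 0.0040. The numbers do not pair the mice: same-numbered mice correlated at -0.251 to -0.109. Leaving out an array or mouse gave 282 to 3404 probes and 1 to 3 marker probes, with 282, 366, 812 and 827 probes without WT4, WT3, TG5 and WT5. It gave -0.0240 to 0.0296 and -0.0297 to 0.0172 for the Prox1 probes, -0.0063 to 0.0305 for Dsp A_51_P201884, -0.0440 to 0.0034 for Dsp A_52_P549815, and -0.0021 to 0.122 for Wfs1. Dsp A_51_P201884 also turned with median pixels (-0.0026) and the scanner ratio (-0.0061), as did Prox1 A_51_P369058 with the latter (0.0106). Exchanging the arrays turned every sign at equal size, with and without 1 value per mouse: C1ql2 0.304, Prox1 -0.0039 and 0.0077, Dsp -0.0114, 0.0985 and 0.0172, Tdo2 0.105 and 0.0429, Calb1 -0.140, Wfs1 -0.0667, Fibcd1 -0.0588, Pcp4 -0.597 (-0.5965 before rounding) and Neurod6 0.0972; with 1 value per mouse, 11 probes and 0 marker probes then passed. The cause of these changes was not tested. A block for slide or scan date was not run, as 1 date and 10 slides of 1 array each leave none to fit. The alternatives for ABI were not run, as no marker had a name there. For 2 of the 3 Dsp probes a signal close to background limits what can be said.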
